A study of Mus musculus with 4 samples.

Results

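The genes described here are 20 immediate early genes, from Fos to Rhob, and 14 heat shock genes, from Hspa1a to Hsf1, read on 4 arrays of mouse liver RNA. Each gene was read from a probe set that the platform annotation gives that symbol alone, and where there were several, from the one with the highest mean over the arrays. In this way 31 of the 34 genes were found among 22180 genes of the arrays: all 20 immediate early genes and 11 of the 14 heat shock genes. Hsp90ab1, Dnaja1 and Hsf1 had no probe set of that symbol alone and were not analysed here. All 31 lay above the filter on dim genes, a mean log2 value of 3.47, which kept 13308 genes.

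The mice were C57Bl6 and 16 weeks old, and all of them carried Myd88 flanked by lox sites (MyD88 lox/lox), so the controls called wild type carry the floxed gene too. The knockout mice also carried a Cre recombinase under the albumin promoter (ALB Cre), which is active in hepatocytes, so the deletion is aimed at these cells. Myd88 encodes the adaptor of Toll-like and interleukin-1 receptors, and its loss in each cell type of the liver was not analysed here. Mice of either genotype received chow of 9.4% fat (control diet) or of 60% fat (high-fat diet). For each group the RNA of 4 to 5 mice, chosen for RNA quality, was pooled onto 1 array, so there are 4 arrays, 1 per group, and the spread between mice was not measured. The values are log2 expression values, and the number of arrays limits the precision. The array medians lay between 3.53 and 3.56, and Pearson's r between arrays over all probe sets lay between 0.985 and 0.990. The labelled tissue was checked on 10 hepatocyte markers, whose summed linear level was between 52000 and 53800 on each array.

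Immediate early genes are switched on within minutes of a stimulus, without new protein synthesis, by transcription factors already present in the cell, such as serum response factor and CREB, after mitogen or stress kinases are activated. Many encode transcription factors themselves, and their mRNAs are short-lived. Heat shock genes encode chaperones that fold proteins or hold unfolded ones, and the inducible members are driven by heat shock factor HSF1, which binds repeats of the heat shock element. In liver both groups are known to respond to injury, feeding and inflammatory signals.

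In wild type, 15 of the 20 immediate early genes were lower on high-fat than on control diet, with a median log2 difference of -0.21, against a median of -0.03 and 55.0% of genes lower over all genes kept. Jund (-0.01), Ccn1 (-0.03), Rhob (-0.05) and Fos (-0.08) were lower by little, and the count was not recomputed in other settings. The median in wild type was -0.16 after median centring and with a stricter filter on dim genes, and -0.20 after cyclic loess or quantile normalisation. In knockout 11 of the 20 were lower, with a median of -0.02, against 47.7% of genes lower and a median of 0.01 over all genes kept. The median in knockout was 0.01 after cyclic loess normalisation between arrays and with the stricter filter, which drops some of the 20. The orphan nuclear receptor gene Nr4a1 stood furthest out, highest on the wild-type control array and lowest on the wild-type high-fat array. The medians of the heat shock genes lay between 0.05 and 0.14 in the 4 differences between 2 arrays, and of the 11 Hspe1 alone was 1.5-fold or more different in any of these. With 1 array per group these differences have no replicate check. The differences of diet in wild type and of genotype on control diet share the wild-type control array, and each of the others likewise shares an array with its neighbours, so a feature of 1 array enters several of them.

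**Figure D1:**
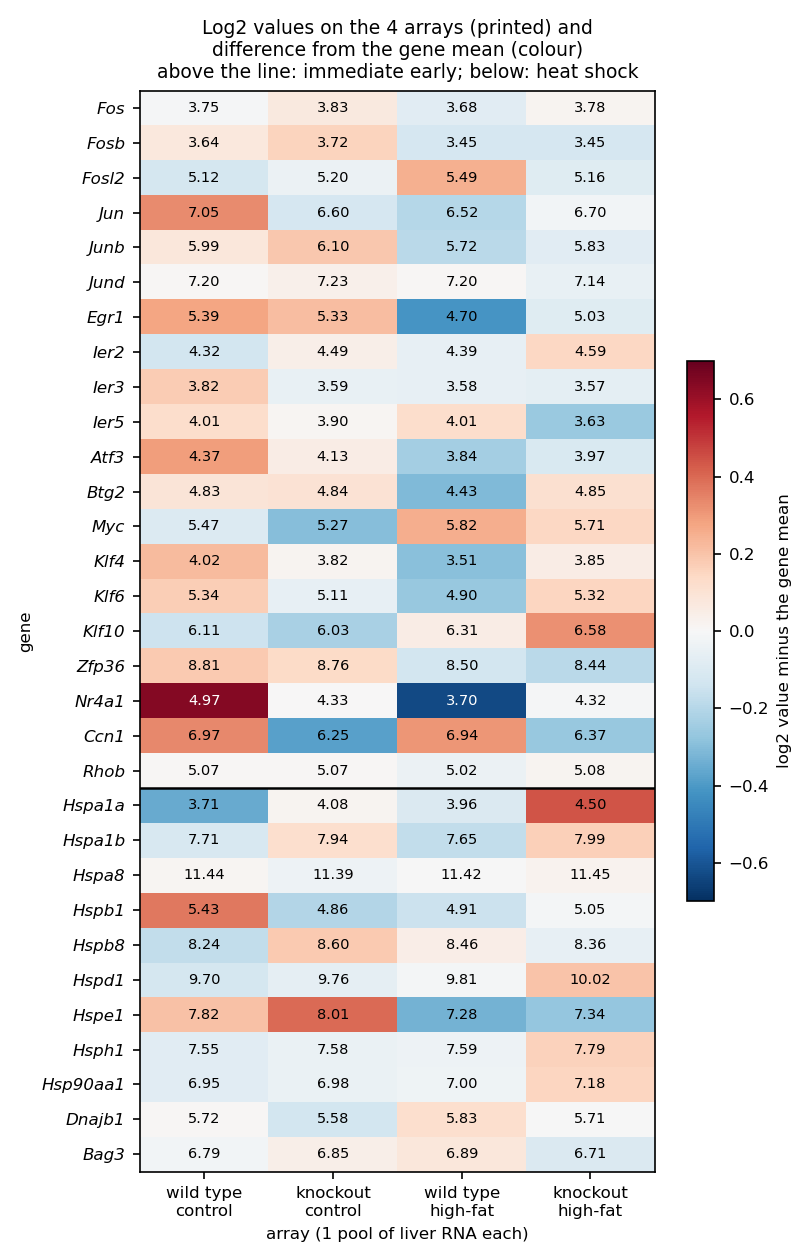
Log2 values of the 31 genes (rows) on the 4 arrays (columns, 1 pool of liver RNA each), printed in each cell, with the colour giving the difference from the gene's mean over the arrays. Nr4a1 has the widest spread, from 4.97 on the wild-type control array to 3.70 on the wild-type high-fat array, while Rhob and Hspa8 are nearly flat.

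Over the 4 arrays the immediate early genes had a median range (highest minus lowest log2 value) of 0.40, the heat shock genes of 0.32 and all genes kept of 0.31. The wild-type high-fat array held the lowest value of 11 of the 20 immediate early genes, against 28.1% of all genes kept, and the wild-type control array the highest of 9 of them, against 28.1% of all genes. For the heat shock genes, the knockout high-fat array held the highest value of 6 of 11, against 31.2% of all genes. Among the 6 were the near-identical Hspa1a and Hspa1b, and Hspa8, at 11.45 there against 11.44 on the wild-type control array. The other probe sets of Hspa8 were lowest on the knockout high-fat array, at 7.02, 8.64 and 8.64. These counts describe 4 arrays, in which members that vary together are not independent.

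Nr4a1 (probe set 17315178) encodes a nuclear receptor without a known classical ligand that is induced by cAMP and by stress signals. Its promoter window is shown because the gene had the widest spread. It runs from 250 bases before to 50 bases after the start, on the plus strand at chr15:101266596-101266895 of GRCm38.p6, as RefSeq gives it, and capitals mark the core of the cAMP response element (TGACG or CGTCA, searched on both strands), which starts at positions -233, -213, -69 and -40 from the start.
Nr4a1: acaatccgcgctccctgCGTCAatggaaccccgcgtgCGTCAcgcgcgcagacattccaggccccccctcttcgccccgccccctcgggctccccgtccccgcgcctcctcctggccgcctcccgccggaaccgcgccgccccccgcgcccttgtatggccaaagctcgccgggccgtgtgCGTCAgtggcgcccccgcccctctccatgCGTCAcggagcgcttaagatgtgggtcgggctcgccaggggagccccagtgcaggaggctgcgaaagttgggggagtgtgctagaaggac
This core occurs in 20.8% of 32851 promoter windows of 300 bases. It was in at least 1 window of 8 of the 16 immediate early genes that have one, and of 4 of 9 heat shock genes (Dnajb1, Hspb1, Hspd1 and Hspe1). Here and for the motifs below, shares are per window and counts per gene, and a gene can have several windows. Nr4a1 had log2 values of 4.97 for wild type and 4.33 for knockout on control diet, and of 3.70 and 4.32 on high-fat diet. The wild-type arrays are thus the highest and the lowest, and the knockout arrays are nearly equal between them. The diet difference was -1.28 in wild type (2.43-fold lower) and -0.01 in knockout. Knockout minus wild type was -0.64 with control feeding and 0.63 with high-fat feeding. The range of 1.28 was wider than that of 99.0% of genes kept. The lowest value, 3.70, is near the filter of 3.47, and signal over background is unknown.

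Of the AP-1 subunits, Jun, which pairs with FOS proteins to bind DNA, had log2 values of 7.05 for wild type and 6.60 for knockout on control diet, and of 6.52 and 6.70 on high-fat diet. It was highest on the wild-type control array, with a diet difference of -0.54 for wild type and 0.11 for knockout. Junb, a JUN relative that can oppose it, was 5.99 for wild type and 6.10 for knockout on control diet, and 5.72 and 5.83 on high-fat diet. Both control arrays were above both high-fat arrays, with a diet difference of -0.27 in each genotype. Fosl2, the gene of FRA-2, was highest in wild type on high-fat diet, at 5.49, with the other arrays at 5.12 to 5.20. Fos and Fosb were dim, at 3.68 to 3.83 and 3.45 to 3.72, near the filter. Jund, at 7.14 to 7.23 in the probe set used, was among the flattest genes. A dimmer probe set of Jund (17510127) had 3.88 for wild type and 4.29 for knockout on control diet, and 3.81 and 3.68 on high-fat diet, so the 2 probe sets disagree, with a diet difference in knockout of -0.10 in the one and -0.61 in the other.

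Egr1, a zinc finger transcription factor of the growth factor and stress response, had log2 values of 5.39 for wild type and 5.33 for knockout on control diet, and of 4.70 and 5.03 on high-fat diet. Both high-fat arrays were below both control arrays, with a diet difference of -0.68 for wild type and -0.30 for knockout. Among the Krüppel-like factors, Klf6, linked to liver injury and repair, was 5.34 for wild type and 5.11 for knockout on control diet, and 4.90 and 5.32 on high-fat diet. Klf4, an antiproliferative factor, was 4.02 and 3.82 on control diet, and 3.51 and 3.85 on high-fat diet. Both were lowest on the wild-type high-fat array, with diet differences in wild type of -0.43 for Klf6 and -0.51 for Klf4. Klf10, a factor induced by TGF-beta and by glucose, went the other way, with 6.11 and 6.03 on control diet and 6.31 and 6.58 on high-fat diet. Myc, the growth regulator, was likewise higher on high-fat diet, at 5.82 for wild type and 5.71 for knockout, against 5.47 and 5.27 on control diet. Atf3, a stress-induced factor of the ATF and CREB family, was 4.37 for wild type and 4.13 for knockout on control diet, and 3.84 and 3.97 on high-fat diet, so that both high-fat values were the lower ones.

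Zfp36 encodes tristetraprolin, which binds AU-rich elements and speeds the decay of inflammatory mRNAs. It was 8.81 for wild type and 8.76 for knockout on control diet, and 8.5 and 8.44 on high-fat diet, with diet differences of -0.30 and -0.32 and genotype differences of -0.04 and -0.06. The control arrays were above the high-fat arrays, and the genotypes nearly coincided. Zfp36 was the 1 immediate early gene of 16 whose window held a CArG box, the binding motif of serum response factor, which is in 1.63% of all windows, on both strands; a window without these letters says nothing about the factor elsewhere. Btg2, an antiproliferative gene whose product recruits the deadenylation machinery, was lowest in wild type on high-fat diet, at 4.43, with the other arrays at 4.83 to 4.85. Its window held the whole cAMP response element TGACGTCA, found in 1.79% of all windows, which contains the core counted above. Of the small early response genes, Ier2 ranged from 4.32 to 4.59 and Ier3, a survival gene, from 3.57 to 3.82. Ier5, whose product promotes the activity of HSF1, was lowest in knockout on high-fat diet, at 3.63, with the other arrays at 3.90 to 4.01.

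Ccn1, which encodes a secreted matrix protein and is a target of the YAP and TAZ coactivators, was the immediate early gene with the clearest genotype difference. It had log2 values of 6.97 for wild type and 6.25 for knockout on control diet, and of 6.94 and 6.37 on high-fat diet. Both wild-type arrays were above both knockout arrays, and the diet differences were -0.03 and 0.11. Rhob, the gene of a small GTPase that is also rapidly induced, stayed between 5.02 and 5.08.

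**Figure D2:**
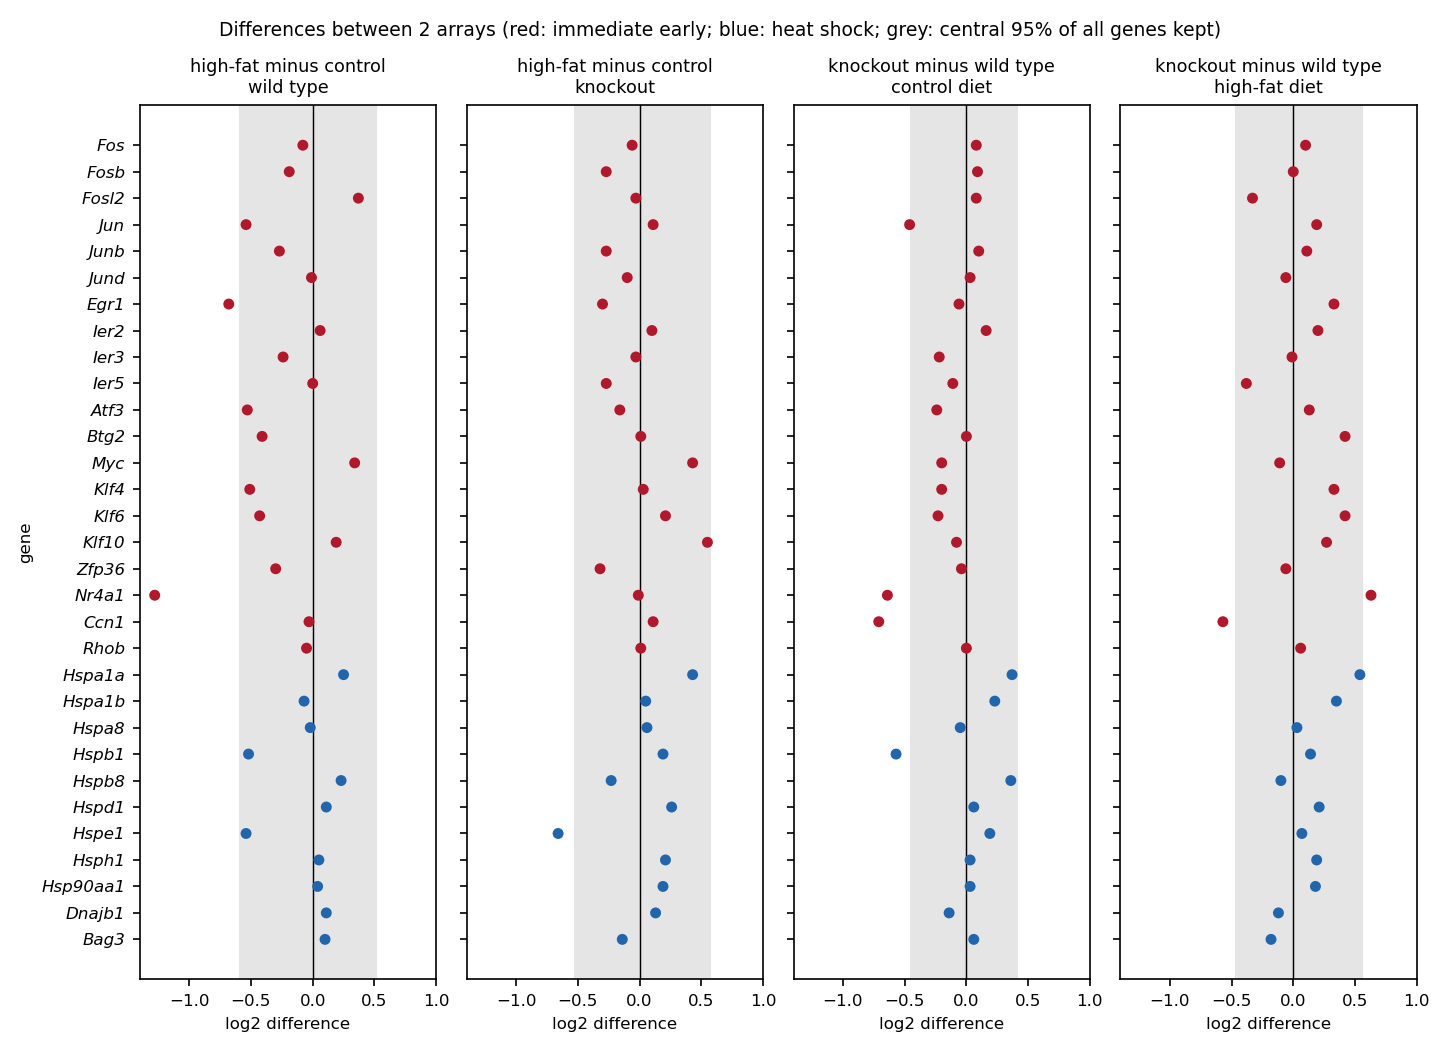
Log2 difference of each gene between 2 arrays, with the diet difference per genotype (high-fat minus control, left panels) and knockout minus wild type on each diet (right panels); red points are immediate early genes, blue points heat shock genes, and the grey band holds the central 95% of the 13308 genes kept. Nr4a1 lies outside the band in wild type for diet and on both diets for genotype, and Ccn1 lies below the band on both diets. Egr1 lies below it for diet in wild type, Hspe1 for diet in knockout, and Hspb1 and, just, Jun for genotype on control diet.

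Genes were counted at 1.5-fold or more, a log2 difference of 0.58. For diet in wild type, 2 of 20 immediate early genes (Nr4a1 and Egr1) were past it and lower, and 2.52% of all genes kept were; 0 of 20 were past it and higher, against 1.68%. For diet in knockout, 0 of 20 were past it in either direction, against 2.28% of all genes higher and 1.72% lower. For genotype on control diet, 2 of 20 (Nr4a1 and Ccn1) were lower, against 0.864% of all genes, and 0 higher, against 0.902%. On high-fat diet 1 of 20, Nr4a1, was higher in knockout, against 2.1%, and 0 were lower, against 1.01%. There Ccn1, at -0.57, was just short of 1.5-fold. At 2-fold, Nr4a1 for diet in wild type was the 1 immediate early gene left in these 4 differences, where 0.564% of all genes were lower and 0.488% higher. For genotype, 0.158% of all genes were 2-fold or more lower with control feeding and 0.165% with high-fat feeding.

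The diet difference in knockout minus that in wild type draws on all 4 arrays and has no test. It was positive for 15 of the 20 immediate early genes and for 7435 of all 13308 genes kept. The median was 0.12 for the 20, against 0.04 over all genes kept. After cyclic loess, median centring and quantile normalisation the median of the 20 was 0.05, 0.06 and 0.04, and that over all genes was not recomputed. Nr4a1 (1.27), Jun (0.65) and Klf6 (0.64) were past 1.5-fold, which 5.12% of all genes were in this direction; 0 of 20 were past it in the other, against 3.11%. After cyclic loess or quantile normalisation Nr4a1 alone was past it, and at 2-fold as reported, where 0.661% of all genes were higher, Nr4a1 was again the 1 gene.

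The additive limma fit over the 4 arrays has 1 residual degree of freedom, the diet by genotype difference. Its error is moderated towards a variance pooled over genes, with 4.63 prior degrees of freedom. Junb, with a diet by genotype difference of 0.0, thus still has an SE of 0.12. In this fit 0 of the 31 genes were called for diet or genotype (limma, p adjusted by Benjamini-Hochberg, threshold 0.05), and 0 of all 13308 genes were called. The count over all genes depended on scaling: limma called 70 genes for diet and 3 for genotype after cyclic loess, and 5 and 0 after median centring, with 0 of the 31 among them. At an unadjusted p under 0.05, limma had 4 of 20 immediate early genes for diet, against 9.3% of all genes: Egr1 and Zfp36 lower, and Myc and Klf10 higher. The limma effect of diet was -0.49 (SE 0.15, adjusted p 0.426) for Egr1 and -0.31 (SE 0.12, adjusted p 0.525) for Zfp36. For genotype it had 1 of 20, Ccn1, against 4.26% of all genes, with a limma effect of -0.64 (SE 0.12, unadjusted p 0.00259, adjusted p 0.975). Over 7 alternative settings limma's adjusted p of Ccn1 for genotype lay between 0.408 and 0.992. Nr4a1, whose difference was in wild type, had a diet effect of -0.64 with an SE of 0.29.

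Of 44 other immediate early genes listed, 39 were kept, with a median diet difference of -0.03 for wild type and -0.01 for knockout, against -0.03 and 0.01 over all genes kept; Egr3, Nr4a2 and Nr4a3 were below the filter. In wild type 4 of the 39 were 1.5-fold or more lower on high-fat diet, against 2.52% of all genes. Gadd45b, a growth arrest gene, had a diet difference of -0.90 for wild type and -0.33 for knockout, and Id3, an inhibitor of helix-loop-helix factors, of -0.77 and -0.51. Plk3, a polo-like kinase of the stress response, had 8.0 for wild type and 7.43 for knockout on control diet, and 7.34 and 7.75 on high-fat diet, and Klf2, a factor of endothelium, 4.85 and 4.44, and 4.25 and 4.63. Both were thus highest on the wild-type control array and lowest on the wild-type high-fat array. Socs3, the feedback inhibitor of interleukin-6 signalling, and Pim1, a kinase induced by STAT factors, had diet differences of -0.61 and -0.60 in knockout, and of -0.01 and 0.0 in wild type. None of the 39 passed limma adjusted over all genes, and at an unadjusted p under 0.05 limma had 3 for diet (7.69%, against 9.3% of all genes) and 1 for genotype (2.56%, against 4.26%), both below the share over all genes.

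Of 25 inducing kinases and factors, 21 were kept. On control diet 17 of the 21 were lower in knockout, with a median of -0.16, and 53.3% of all genes were lower. There 0 of 21 were past 1.5-fold, against 0.902% of all genes higher and 0.864% lower. On high-fat diet 8 of the 21 were lower in knockout, against 45.9%. For diet, 13 of 21 were lower in wild type and 6 in knockout, against 55.0% and 47.7% of all genes. Past 1.5-fold and higher on high-fat diet were 1 of 21 in wild type and 2 in knockout, against 1.68% and 2.28%. Map2k6, the kinase that activates p38, had 4.89 for wild type and 4.54 for knockout on control diet, and 5.74 and 5.88 on high-fat diet. It was higher on high-fat diet by 0.85 for wild type and 1.33 for knockout, with a limma adjusted p of 0.203 for diet. Wwtr1, the gene of the TAZ coactivator, was 5.94 on the knockout high-fat array and 5.30 to 5.57 on the others. At an unadjusted p under 0.05 limma had 1 of 21 for diet and 1 for genotype (4.76% each, against 9.3% and 4.26% of all genes), and 0 adjusted.

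Other cells of the liver also express immediate early genes, and their markers were read beside them. Of 10 markers of Kupffer cells and macrophages, 8 were lower on high-fat diet for wild type and 7 for knockout, with medians of -0.31 and -0.13. Over all genes kept 55.0% and 47.7% were lower, with medians of -0.03 and 0.01. Of the 10 hepatocyte markers 8 were lower in each genotype, with medians of -0.03 and -0.04. The summed linear level of the Kupffer cell and macrophage markers was 2380 for wild type and 2340 for knockout on control diet, and 2080 on both high-fat arrays. On control diet 4 of the 10 were higher in knockout, with C1qa, C1qb and C1qc, genes of the complement component C1q, higher by 0.18, 0.09 and 0.23. The other 6 were lower, where 53.3% of all genes were lower. Among the lower ones, and named after their values were seen, Marco, a scavenger receptor gene of macrophages, had 6.02 on the wild-type control array and 5.22 to 5.61 on the others, and Adgre1, which encodes F4/80, 6.90 and 6.26 to 6.44. Clec4f, a defining Kupffer cell marker, lay between 8.62 and 8.77. The summed level of 10 sinusoidal endothelial markers was 2840 in wild type on high-fat diet, against 3020 to 3100 elsewhere, but their median log2 value was lowest on the knockout high-fat array, at 8.05 against 8.08 in wild type, so the markers did not share 1 lowest array. Of 10 neutrophil markers 8 were below the filter, S100a8, S100a9 and Ly6g among them, and of the 10 lymphocyte markers listed 4 were kept. In bulk RNA, fewer cells of a type and less RNA per cell cannot be told apart, and the part of these markers in the differences above was not tested.

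**Figure D3:**
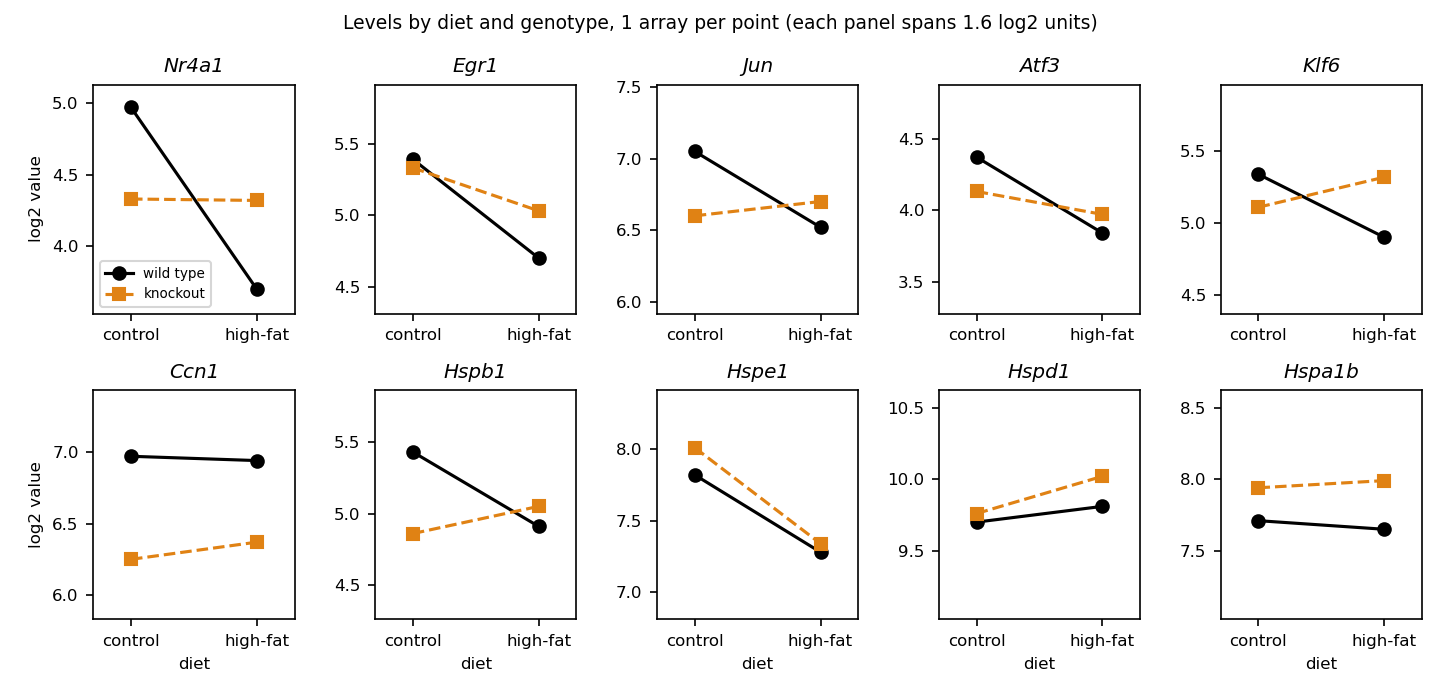
Log2 values of 10 of the genes by diet, with 1 array per point, wild type as black circles and knockout as orange squares, each panel spanning the same number of log2 units. The lines cross for Nr4a1, Jun, Klf6, Atf3, Egr1 and Hspb1, run apart for Ccn1 and Hspa1b, and for Hspe1 both genotypes are lower with the high-fat diet.

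Among the heat shock genes, the mitochondrial chaperonin pair had diet differences of opposite sign, small ones for Hspd1. Hspd1 encodes HSP60 and Hspe1 its lid HSP10, and the genes lie head to head on chromosome 1. RefSeq gives Hspd1 a pair of windows: one shares 285 bases with that of Hspe1, read from opposite strands, and the other, at chr1:55088194-55088493, shares 4. The Hspe1 window is shown because 1 promoter region faces genes whose diet differences had opposite signs. It is given on the strand of Hspe1 (plus) at chr1:55087898-55088197 of GRCm38.p6, from RefSeq, with capitals on the heat shock element, searched as the pairs GAANNTTC and TTCNNGAA, which are their own reverse complements.
Hspe1: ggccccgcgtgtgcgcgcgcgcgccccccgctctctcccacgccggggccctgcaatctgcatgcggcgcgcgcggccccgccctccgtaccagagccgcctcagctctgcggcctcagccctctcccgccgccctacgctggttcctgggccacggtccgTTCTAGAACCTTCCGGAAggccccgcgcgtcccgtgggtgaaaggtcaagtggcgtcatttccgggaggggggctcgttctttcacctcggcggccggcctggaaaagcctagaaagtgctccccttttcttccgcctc
The 3 overlapping pairs start at positions -89, -84 and -79 from the Hspe1 start. They hold the form of 3 units, in which TTCNNGAA is followed by NNTTC or GAANNTTC by NNGAA, which is in 0.603% of all windows and, among heat shock genes, in those of Hspd1, Hspe1 and Hsph1. Hspe1 (probe set 17212882) had log2 values of 7.82 for wild type and 8.01 for knockout on control diet, and of 7.28 and 7.34 on high-fat diet. Hspd1 (probe set 17223228) had 9.70 and 9.76 on control diet, and 9.81 and 10.02 on high-fat diet. Both high-fat arrays were the lower ones for Hspe1 and the higher ones for Hspd1. The diet difference was -0.54 for wild type and -0.66 for knockout for Hspe1, and 0.11 and 0.26 for Hspd1. In knockout Hspe1 was the 1 of 11 heat shock genes past 1.5-fold, where 1.72% of all genes were lower. Its limma effect of diet was -0.60 (SE 0.12, unadjusted p 0.00333, adjusted p 0.287), and over 7 alternative settings limma's adjusted p lay between 0.126 and 0.352.

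Hspa1a and Hspa1b, the stress-inducible HSP70 genes, are near-identical neighbours on chromosome 17, and their values may mix the copies and are uncertain. Their windows are shown because both genes had the same genotype direction. Both lie on the minus strand of GRCm38.p6, from RefSeq, Hspa1a at chr17:34972107-34972406 and Hspa1b at chr17:34959189-34959488, and capitals mark the heat shock element pair, at position -104 in each.
Hspa1a: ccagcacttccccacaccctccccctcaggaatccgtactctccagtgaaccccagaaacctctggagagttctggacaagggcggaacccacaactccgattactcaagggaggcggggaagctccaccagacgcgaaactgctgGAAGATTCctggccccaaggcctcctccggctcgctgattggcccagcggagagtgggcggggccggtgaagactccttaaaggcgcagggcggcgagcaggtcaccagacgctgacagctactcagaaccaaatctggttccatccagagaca
Hspa1b: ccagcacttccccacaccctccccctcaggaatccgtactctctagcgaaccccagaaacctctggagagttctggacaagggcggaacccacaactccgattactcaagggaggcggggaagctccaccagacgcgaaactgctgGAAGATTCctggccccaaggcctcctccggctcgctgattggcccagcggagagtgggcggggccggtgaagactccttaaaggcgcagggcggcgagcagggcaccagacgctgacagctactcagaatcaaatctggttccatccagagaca
The windows are identical at 296 of 300 bases, which is 98.7%. Hspa1a had log2 values of 3.71 for wild type and 4.08 for knockout on control diet, and of 3.96 and 4.50 on high-fat diet. Hspa1b had 7.71 and 7.94 on control diet, and 7.65 and 7.99 on high-fat diet. For each gene both knockout arrays were above both wild-type arrays, with genotype differences of 0.37 and 0.54 for Hspa1a and of 0.23 and 0.35 for Hspa1b. The limma effect of genotype was 0.45 (SE 0.13, unadjusted p 0.0129, adjusted p 0.975) for Hspa1a and 0.29 (SE 0.12, adjusted p 0.975) for Hspa1b. The heat shock element pair was in a window of 8 of the 9 heat shock genes that have both a window and a value, in 3 of the 16 immediate early genes (Ccn1, Fosl2 and Jun) and in 15.1% of all windows.

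Hspa8, the constitutive HSP70 gene of all cells, was flat in the probe set used (17516365), at 11.39 to 11.45. Its 3 other probe sets disagreed with that one and went together: their diet difference was 0.15, 0.21 and 0.23 in wild type and -0.46, -0.43 and -0.45 in knockout, against -0.02 and 0.06 in the one used. Probe set 17548379 had 8.79 for wild type and 9.07 for knockout on control diet, and 9.01 and 8.64 on high-fat diet. Which transcripts these probe sets match was not analysed here.

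**Figure D4:**
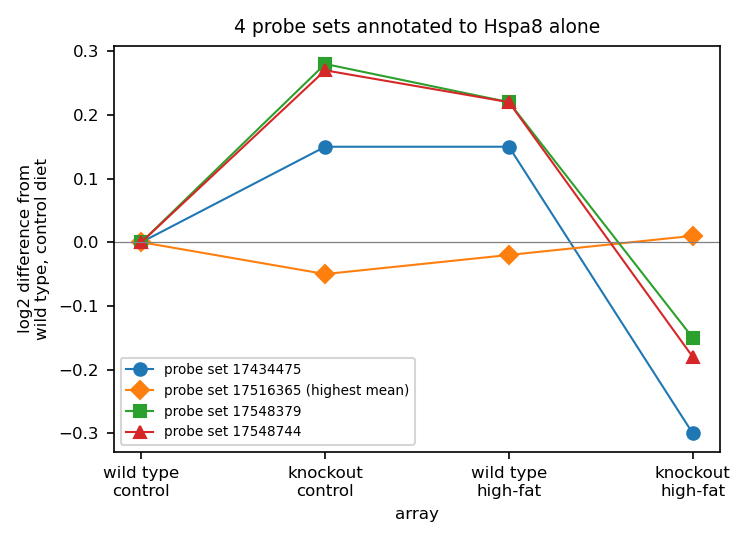
Log2 difference from the wild-type control array (vertical axis) on the 4 arrays (horizontal axis) for the 4 probe sets annotated to Hspa8 alone; lines join the values of 1 probe set. The probe set with the highest mean stays near 0, while the other 3 are above it on the middle arrays and below it on the knockout high-fat array.

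Of the small heat shock proteins, Hspb1, which encodes HSP25, had log2 values of 5.43 for wild type and 4.86 for knockout on control diet, and of 4.91 and 5.05 on high-fat diet. Hspb1 was highest on the wild-type control array, with a diet difference of -0.52 for wild type and 0.19 for knockout. Its diet by genotype difference of 0.71 made it the 1 of 11 heat shock genes past 1.5-fold, where 5.12% of all genes were; with the mean of its probe sets it was 0.50. Hspb8, whose product works with BAG3 in chaperone-assisted autophagy, was 8.24 for wild type and 8.60 for knockout on control diet, and 8.46 and 8.36 on high-fat diet. Bag3 itself stayed between 6.71 and 6.89, and Dnajb1, the HSP40 partner of HSP70, between 5.58 and 5.83.

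Hsph1, the HSP110 nucleotide exchange factor of HSP70, had 7.55 for wild type and 7.58 for knockout on control diet, and 7.59 and 7.79 on high-fat diet. Hsp90aa1, the inducible HSP90 gene, had 6.95 and 6.98, and 7.0 and 7.18. Both were thus highest on the knockout high-fat array by a small step, which for genotype on high-fat diet was 0.19 and 0.18, within the central 95% of all genes, from -0.46 to 0.56. On that array the summed level of 10 exocrine pancreas markers was highest too, at 5740, against 520 on the wild-type control array and 2460 and 2720 on the others. The summed level of 6 skeletal muscle markers was highest on the wild-type high-fat array, at 215, against 82.8 to 101 on the others. The part of pancreas and muscle RNA in the values of the heat shock genes, and in those of the immediate early genes above, was not tested.

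At 1.5-fold, 0 of 11 heat shock genes were past it for diet in wild type or for genotype on either diet. Over all genes the shares higher and lower were 1.68% and 2.52%, 0.902% and 0.864%, and 2.1% and 1.01% in these 3 differences, so 0 of 11 is near the background. At an unadjusted p under 0.05, limma had 2 of 11 for diet, Hspe1 lower and Hspa1a higher, against 9.3% of all genes, and 1 of 11, Hspa1a, for genotype, against 4.26%. The limma effect of diet was 0.34 (SE 0.13, adjusted p 0.511) for Hspa1a.

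Of 40 other chaperones and cochaperones, 39 were kept. In knockout 2 of the 39 were 1.5-fold or more higher on high-fat diet and 1 lower, against 2.28% and 1.72% of all genes. Chordc1, an HSP90 cochaperone, had 7.71 for wild type and 7.48 for knockout on control diet, and 7.19 and 8.02 on high-fat diet, so the diet difference was -0.52 for wild type and 0.54 for knockout. For genotype on high-fat diet it was the 1 of the 39 past 1.5-fold, at 0.83, where 2.1% of all genes were higher. Cacybp, which binds calcyclin and ubiquitin ligase components, was 8.36 on the knockout high-fat array and 7.65 to 7.94 on the others. Dnajb6, a J-domain protein that keeps proteins from aggregating, was higher on high-fat diet by 0.31 for wild type and 0.61 for knockout. Dnajb5, another J-domain protein, had a diet difference of 0.21 for wild type and -0.60 for knockout. The 8 subunit genes of the cytosolic chaperonin CCT, which folds actin and tubulin, had differences between -0.33 and 0.20 in all 4 comparisons. Past 1.5-fold were 0 of 8, where 0.864% to 2.52% of all genes were past it in any 1 comparison and direction. Limma called 0 of the 39 and 0 of the 8 when adjusted over all genes, and at an unadjusted p under 0.05 it had 3 of the 39 for diet (7.69%), 1 for genotype (2.56%) and 0 of the 8 for either. These shares are below those over all genes, 9.3% for diet and 4.26% for genotype.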

How the data were processed

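Liver RNA of 4 groups of mice was read on 4 Affymetrix arrays. The deposited log2 values were made by the authors by RMA (Expression Console of Affymetrix), per the submitters' processing notes. Software version, probe set library and genome build were not given in the sources used here. Because RMA subtracts background and sets all arrays to common quantiles before summarising probes, array-wide shifts are removed and dim differences compressed. Signal over background is unknown. Slide and scan batches were not analysed here.

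Of 41345 probe sets 23521 had 1 symbol, and those with several (1814) or none (16010) were not named. Genes below the 40th percentile of the mean log2 value were not tested. Differences between 2 arrays are subtractions. The additive fit, with genotype and diet as terms, used limma 3.58.1 in R 4.3.3 (eBayes, Benjamini-Hochberg adjustment over all genes kept). It was run on simulated data with additive diet effects and independent noise, which cannot show how it does where diet and genotype interact. The error behind the p-values of the fit is the diet by genotype difference, drawn by eBayes towards a variance pooled over all genes kept. The prior has 4.63 degrees of freedom and the gene itself 1, so the pooled part weighs more. The p-values thus measure neither the spread between replicate arrays nor that between mice. Any of the 31 members could be named, and from the wider lists at most 6 genes past 1.5-fold each. Members and lists were chosen with earlier results of these data known. Alternatives were cyclic loess, median centring, quantile normalisation, no filter or the 60th percentile, the mean of all probe sets, a prior trend, a fold of 2 and leaving out Hspa1a and Hspa1b. Promoter windows came from RefSeq (GRCm38.p6) and were matched by symbol for 26 of 34 members. Python 3.11.15, pandas 2.3.3, NumPy 2.4.6 and matplotlib 3.10.9 were used.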

Additional observations from a re-analysis of the deposited data

Results flagged for a closer look

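Nr4a1 differed with genotype in opposite directions on the diets, by -0.64 on control diet and by 0.63 on high-fat diet, both past 1.5-fold. It was the 1 member of 31 for which a contrast was past 1.5-fold in opposite directions in both settings, whether diet in the genotypes or genotype on the diets. The 2 values share no array, and their difference was not tested, since each group has 1 array. Over the 6 settings that change the values or the genes kept, the first lay between -0.64 and -0.60 and the second between 0.61 and 0.63.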

How the results depend on the processing

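Of 229 recomputed counts and medians of the lists, 217 stayed within 1.5 times (counts) or 0.1 log2 (medians) of the reported value and 12 did not. Without the filter the medians and the counts at a fold could not change, since all 31 members passed it. With a fold of 2, the immediate early genes that were lower came to 1 for diet in wild type and 0 for genotype on control diet, those that were higher to 0 for genotype on high-fat diet and 1 for the diet by genotype difference, and the heat shock genes to 0 for diet in knockout (lower) and 0 for the diet by genotype difference (higher). After cyclic loess, median centring or quantile normalisation 1 immediate early gene, Ccn1, was past 1.5-fold and lower for genotype on high-fat diet. After cyclic loess or quantile normalisation 1 remained past it and higher for the diet by genotype difference, and with the mean of all probe sets 0 heat shock genes were. The cause of these shifts in normalisation was not tested; the other settings change the threshold or the probe sets. Of 895 recomputed differences of single genes, 870 stayed within 0.1 log2, and 28 took the opposite sign, none of them larger than 0.09 as reported. Many of the 895 could not move. The filter settings leave such a difference unchanged, and the mean of all probe sets could change only those of Jund, Hspa8 and Hspb1. For the other genes only cyclic loess, median centring and quantile normalisation could move a difference. Of the 10 differences past 1.5-fold, 8 were still past it after cyclic loess or quantile normalisation and 9 after median centring. Limma called 0 members for diet and for genotype in each alternative, while over all genes its calls went from 0 to 70 (diet) and 3 (genotype) after cyclic loess and to 5 (diet) after median centring. No paired analysis was possible because each group has 1 array and the labels give no replicate numbers. Depth does not apply to arrays, and signal over background is unknown. This limits Fos, Fosb, Ier3, Klf4 and Ier5 most, which had the lowest means of the 31, and also the lowest values of Nr4a1 and Hspa1a.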
